A study of Mus musculus with 6 samples.

Results

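Expression of 9 mouse genes of the promyelocytic leukemia (PML) body, the SP100 family and the PHF11 family was examined in C2C12 cells after knockdown of CNN3. The genes were Pml, Daxx, Sp100, Sp110, Sp140, Phf11a, Phf11b, Phf11c and Phf11d, chosen by name with the difference between siCNN3 and siNC in these same libraries already known. Their levels in the 6 libraries are therefore given as a description, and calls on them from the fit over all genes are counted only beside the share of all genes called. Of the 9 genes, 7 were among the 11835 genes of the deposited table, and all 7 were among the 11593 genes tested. Sp110 and Sp140 had 9 and 6 annotated transcripts, none of which was in the table, so no value is given for either gene.

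C2C12 is a mouse myoblast line, and the cells were moved to low-serum (2% horse serum) medium for differentiation. The labels call the cell type a mouse myotube, whereas the study describes differentiating myoblasts. RNA was sequenced from 3 samples transfected with NC siRNA (siNC) and 3 samples transfected with CNN3 siRNA (siCNN3). The study gives a harvest time for its differentiation experiments, but the sources used here do not tie it, or a given CNN3 siRNA, to the sequenced samples. They also do not say that the replicates were separate cultures, so p-values measure only the spread between these samples, which may be technical.

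PML bodies are nuclear dots built on the PML protein, which is modified by SUMO and gathers client proteins such as SP100 and DAXX. SP100, SP110 and SP140 are related nuclear proteins with chromatin-reading domains, and PHF11 proteins carry a PHD-type zinc finger. Pml and Sp100 are classic interferon-inducible genes, and PML bodies are known for restraining viral genomes and for roles in senescence and DNA repair.

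The values were FPKM, which scale the fragments of a transcript by its length and by the mapped total, summed over the transcripts of a gene. The number of reads is unknown, values go down to 1e-06 FPKM, and no counting error can be given. Replicate 1 of siNC stood apart, with 2131 transcripts listed at 0 compared with 978 to 1333 in the other libraries. Cnn3, the targeted gene, had 62.8, 61.4 and 62.8 FPKM in the siNC libraries (replicates 1, 2 and 3) against 19.0, 39.2 and 25.6 FPKM in the siCNN3 libraries. The groups did not overlap, but the difference of -1.19 on the log2(FPKM + 1) scale (SE 0.242, n = 3 per group) did not pass the threshold (adjusted p = 0.0669, and 0.0477 without siCNN3 replicate 2). Of 14 myoblast and myotube markers, 11 could be tested, with a summed level of 267 to 299 FPKM in siNC and 182 to 245 FPKM in siCNN3. Their median log2 difference was -0.63, and 8 of the 11 were lower in every siCNN3 library than in any siNC library, as were 9.35% of all tested genes. At an unadjusted p below 0.05, 1 was higher and 8 were lower (9.94% and 6.14% over all tested genes), the higher one being the myoblast factor Myf5 (log2 difference 0.88, adjusted p = 0.238, chosen after its value was seen). Myh3 (embryonic myosin heavy chain) and Tnnt3 (fast troponin T) had log2 differences of -1.38 and -1.50 and passed in the lower direction (adjusted p = 0.0193 and 0.0144), as did 0.336% of all tested genes, and both calls were lost when replicate 3 of siNC, or replicate 1 or 2 of siCNN3, was left out (adjusted p from 0.0743 to 0.111). Ttn and Actc1 were not in the table, and Ckm, the creatine kinase of mature muscle, was below the filter. Of 14 blood and immune cell markers only Cd68 and Lyz2 were in the table. Their summed level was 4.72 to 10.2 FPKM in siNC and 2.81 to 4.04 FPKM in siCNN3, with a median log2 difference of -0.68, while Ptprc, Cd3e and Itgam had no value. The part of these cell type markers in the results was not tested.

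All 7 genes had a higher level in every siCNN3 library than in any siNC library, as did 13.8% of all tested genes. Of the 7, 6 passed the limma threshold of an adjusted p below 0.05 in the higher direction, which 1.73% of all tested genes did. None passed in the lower direction (0.336% of all tested genes), and none had an unadjusted p below 0.05 in that direction (6.14% of all tested genes). The gene that did not pass was Pml. These counts restate the contrast by which the genes were chosen, and nothing is read from them. Phf11a, with a siNC mean of 0.278 FPKM, passed the filter at a mean of 0.5 FPKM only through its siCNN3 libraries. The count of 6 became 3 without siNC replicate 1, 1 without siCNN3 replicate 1, and 0 without siNC replicate 3 or siCNN3 replicate 2. Over all tested genes 83.7% of the calls were in the higher direction, and 68.2% after quantile normalization. In these bulk samples a change in the share of cells that express a gene and a change in RNA per cell cannot be told apart.

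**Figure D1:**
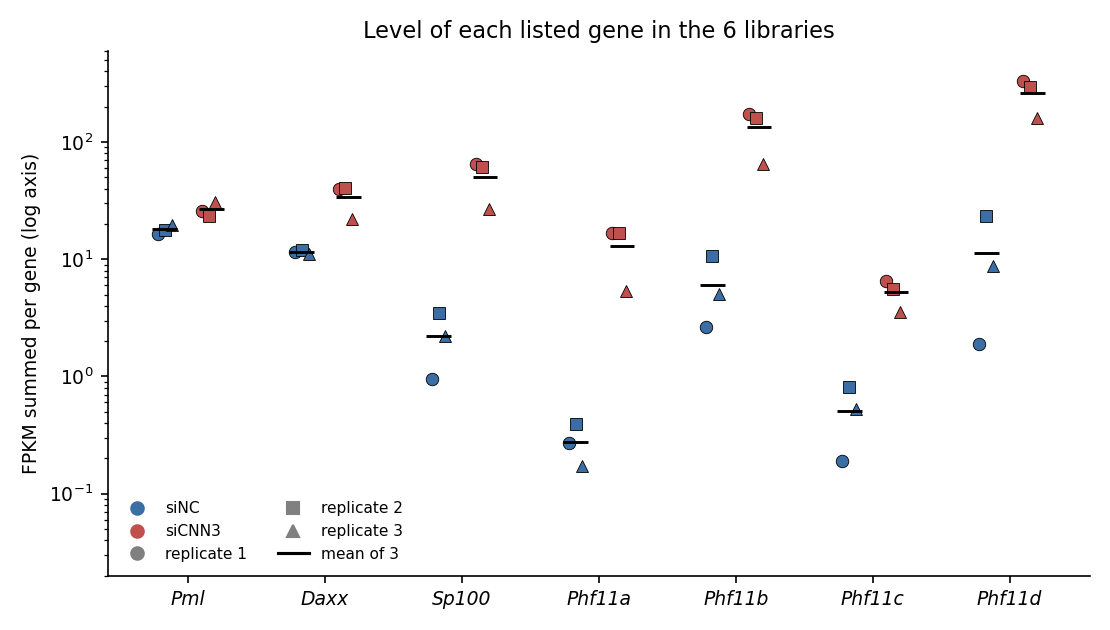
Summed FPKM of each listed gene (log axis) in the 3 siNC (blue) and 3 siCNN3 (red) libraries, with the marker shape giving the replicate number and the bar the mean of 3. Every siCNN3 point lies above every siNC point of the same gene, with Pml closest (19.6 against 23.4 FPKM) and siCNN3 replicate 3 the lowest siCNN3 point for all genes but Pml.

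Pml encodes the scaffold of the bodies and lies on the minus strand of chromosome 9 (GRCm38, chr9:58218076-58249786). In the order of replicates kept throughout, the siNC libraries held 16.3, 17.8 and 19.6 FPKM and the siCNN3 libraries 25.8, 23.4 and 30.9 FPKM. The groups did not overlap, and Pml differed least of the 7 genes, by 0.55 on the log2(FPKM + 1) scale (SE 0.146), a 1.49-fold difference of the means. Its transcript with the highest mean, on its own, differed by 0.99. It held position 948 of 11593 when tested genes were ordered from the largest increase. Unlike the other 6 genes, Pml was highest in siCNN3 replicate 3 and lowest in siCNN3 replicate 2.

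Daxx encodes a chaperone that deposits histone H3.3 together with ATRX and binds the bodies through SUMO. The gene lies on the plus strand at chr17:33909414-33915590. The siNC libraries held 11.5, 12.0 and 11.2 FPKM and the siCNN3 libraries 39.4, 40.3 and 21.9 FPKM. The siNC libraries lay close together, whereas siCNN3 replicate 3 was well below the other siCNN3 libraries. The log2 difference was 1.43 (SE 0.238), position 218, and the means differed 2.93-fold.

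Sp100, at chr1:85649988-85709998 on the plus strand, encodes a resident of PML bodies that represses transcription. The siNC libraries held 0.945, 3.47 and 2.22 FPKM and the siCNN3 libraries 64.3, 60.7 and 26.7 FPKM. The lowest siCNN3 library was 7.70 times the highest siNC library. The log2 difference was 3.99 (SE 0.420), position 28 of all tested genes, and the means differed 22.9-fold. Sp110 (chr1:85576899-85598817) and Sp140 (chr1:85600378-85645037) lie beside Sp100 in the annotation and were not in the table.

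The PHF11 genes stand in a tandem group on the minus strand of chromosome 14, in the order Phf11a (chr14:59276913-59297522), Phf11b (chr14:59320964-59341351), Phf11d (chr14:59347407-59365470) and Phf11c (chr14:59380833-59395381). Each encodes a PHD finger protein. Phf11d measured 1.91, 23.5 and 8.70 FPKM in the siNC libraries and 328, 292 and 161 FPKM in those of siCNN3. It had both the largest difference of the 7 genes (4.82 on the log2 scale, SE 0.725, position 12) and the widest spread in siNC, where replicate 2 was 12.3 times replicate 1, the library with the most transcripts at 0.

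Phf11b had 2.66, 10.6 and 5.02 FPKM across the siNC libraries, against 175, 161 and 65.3 FPKM across the siCNN3 libraries. The same libraries were high and low as for Phf11d, and the log2 difference was 4.29 (SE 0.512, position 21). Phf11a measured 0.272, 0.392 and 0.171 FPKM in the siNC libraries and 16.9, 16.7 and 5.39 FPKM in those of siCNN3, a log2 difference of 3.31 (SE 0.401, position 49). Its fold of the means was 46.7, the highest of the 7 genes. The added 1 FPKM shrinks the log2 difference of genes this low. With 0.1 FPKM added, that of Phf11a was 4.98 and that of Phf11c 3.23. Phf11c had 0.189, 0.816 and 0.532 FPKM across the siNC libraries, against 6.50, 5.58 and 3.56 FPKM across the siCNN3 libraries, a log2 difference of 2.03 (SE 0.252, position 127). For all 4 genes siNC replicate 2 was the highest siNC library and siCNN3 replicate 3 the lowest siCNN3 library. Replicate 1 of siNC was the lowest library for Pml, Sp100, Phf11b, Phf11c and Phf11d. Without it the log2 difference was 0.48 for Pml, 3.67 for Sp100, 3.89 for Phf11b, 1.87 for Phf11c and 4.02 for Phf11d, and 1.42 and 3.31 for Daxx and Phf11a.

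Summed over the 4 PHF11 genes, the level was 5.02, 35.2 and 14.4 FPKM in siNC and 527, 476 and 235 FPKM in siCNN3. Phf11d made up 37.9% to 66.6% of this sum in siNC and 61.4% to 68.4% in siCNN3. The split between the copies depends on how shared reads were assigned, which is not given in the sources used here. The 50-base stretches of their transcripts in the table were compared with all annotated transcripts of other genes. Of the stretches of Phf11a 35.2%, and of those of Phf11b 47.0%, also occurred in another gene, compared with 10.9% for Phf11c and 13.0% for Phf11d. Phf11a and Phf11b had 295 such stretches in common. The share was 7.00% for Sp100, mostly with the predicted genes Gm2619, Gm7582, Gm7592 and Gm7609, which were not in the table, 0.435% for Pml and 0 for Daxx. Levels of single PHF11 genes, and of Phf11a and Phf11b most of all, are therefore less certain than their sum. Gm6904, which lies near Phf11a and has stretches in common with Phf11a and Phf11b, measured 0, 0.0688 and 0 FPKM in the siNC libraries and 0.166, 2.05 and 0.386 FPKM in those of siCNN3.

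Compared per length within siNC, the order of mean levels was Pml, Daxx, Phf11d, Phf11b, Sp100, Phf11c and Phf11a. The ranges of neighbours in this order overlapped except between Pml and Daxx and between Sp100 and Phf11c. Within siCNN3 the order was Phf11d, Phf11b, Sp100, Daxx, Pml, Phf11a and Phf11c, and the ranges were separate only between Phf11b and Sp100 and between Pml and Phf11a. Pml, first in siNC, was in place 5 in siCNN3, while Phf11d moved from place 3 to place 1.

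The transcripts of a gene did not all follow its sum. Of the annotated transcripts, the table held 6 of 12 for Pml, 5 of 10 for Daxx, 7 of 13 for Sp100 and 3 of 4 for Phf11d. Sums and shares rest on these alone. All 7 listed Sp100 transcripts and all 3 of Phf11d were higher in every siCNN3 library than in any siNC library, as were 4 of 5 for Daxx and 10.1% of the 23949 matched transcripts. These are transcripts of genes chosen on this contrast, and nothing is read from the counts. The exception was Daxx-204, at 0.643, 0 and 0.446 FPKM in siNC and 0.284, 0.435 and 0.664 FPKM in siCNN3. Of 6 Pml transcripts, only Pml-205 was higher without overlap, with 4.12, 7.24 and 7.30 FPKM in siNC and 10.3, 10.7 and 19.5 FPKM in siCNN3. Pml-202 went the other way, as did 7.55% of the matched transcripts, from 1.68, 1.24 and 0.468 FPKM in siNC to 0.00410, 0.00235 and 0.193 FPKM in siCNN3, and the remaining 4 overlapped. The share of Pml-205 in the Pml sum was 34.3% ± 8.09 in siNC and 49.6% ± 12.1 in siCNN3 (SD, n = 3).

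Daxx-202 had 0, 0.0251 and 0.436 FPKM across the siNC libraries, against 10.5, 6.72 and 4.50 FPKM across the siCNN3 libraries. Its share of the gene went from 1.37% ± 2.20 to 21.3% ± 5.08 (SD, n = 3). Sp100-202, which has 20 exons and the highest mean of the listed Sp100 transcripts, measured 0, 0.624 and 0.608 FPKM in the siNC libraries and 27.1, 25.7 and 9.76 FPKM in those of siCNN3, and its share went from 15.1% ± 13.9 to 40.3% ± 3.27 (SD, n = 3). The siNC shares rest on low levels, and a transcript listed at exactly 0 can be a failed estimate. FPKM of transcripts that share exons are estimates that depend on one another, so a share is less certain than the sum of the gene.

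**Figure D2:**
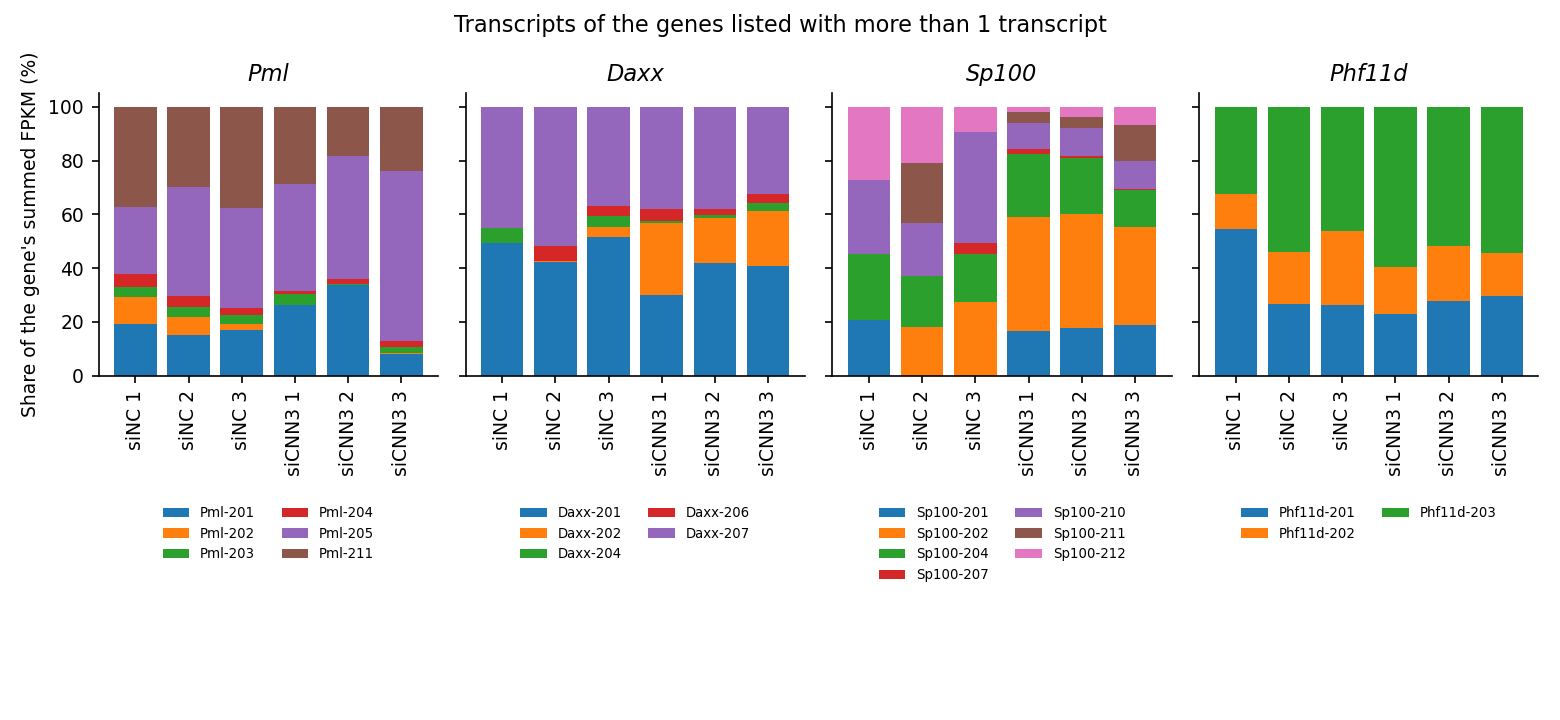
Share of each deposited transcript in the summed FPKM of its gene (percent, stacked to 100) in the 3 siNC and 3 siCNN3 libraries, for the genes with more than 1 transcript in the table. Pml-205 holds 25.2% to 40.6% of Pml in siNC and 39.9% to 63.1% in siCNN3, and Daxx-202 at most 3.91% of Daxx in siNC and at least 16.7% in siCNN3.

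Promoter windows of RefSeq (GRCm38.p6, from 250 bases before to 50 bases after a transcript start) were searched on both strands for GAAA followed by any 2 bases and GAAA, the core of an interferon-stimulated response element, and for TTCNNNGAA, the gamma-activated site. The first was found in 2 of the 9 genes, Phf11a and Phf11b, and in 3.99% of the 27025 genes that had a window. The second was found in 0 of the 9 genes and in 9.55% of all genes. Among genes that passed the threshold in the higher direction and had a window, 38 of 153 held the first motif (24.8%, compared with 3.79% of tested genes) and 20 held the second (13.1%, compared with 8.29%). The matches of Phf11a and Phf11b are shown because they are nearly the same sequence, minus strand, 5′ to 3′, with the motif in capitals:
Phf11a: cacatttagaGAAAAAGAAActagaaccta
Phf11b: cacatttagaGAAAAAGAAActagaaacta
The first lies at chr14:59297532-59297561 and the second at chr14:59341361-59341390, both upstream of the annotated transcript. The motif of each ends 20 bases before the GENCODE start of its gene. Against the RefSeq start it lies at -29 to -20 in Phf11a and at -50 to -41 in Phf11b. The 30 bases differed by C27A, with the Phf11a base first and positions counted from the 5′ end of the printed run. A match is a description of these letters, and no binding was measured.

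Other components of PML bodies, and the enzymes that modify them, were compared next. Of 27 residents and partners of PML bodies, 2 passed the limma threshold higher and 0 lower, compared with 1.73% and 0.336% of all tested genes. At an unadjusted p below 0.05 there were 6 and 2, compared with 9.94% and 6.14% of all tested genes. The median log2 difference of the partners was 0.18, compared with 0.03 over all tested genes. That of the 7 listed genes was 3.31, but they were chosen on this contrast, so nothing is read from that gap. Mdm2, the ubiquitin ligase of p53, had 7.01, 6.04 and 5.46 FPKM across the siNC libraries, against 12.1, 12.1 and 11.2 FPKM across the siCNN3 libraries (log2 difference 0.84, SE 0.139, adjusted p = 0.0372). Sqstm1, the autophagy receptor p62, measured 198, 243 and 204 FPKM in the siNC libraries and 413, 350 and 339 FPKM in those of siCNN3 (log2 difference 0.77, SE 0.126, adjusted p = 0.0361). Both lost the call when replicate 1 or 3 of siNC, or replicate 1 or 2 of siCNN3, was left out, and Mdm2 also when replicate 2 of siNC was (adjusted p from 0.0575 to 0.189). Both were also lost with the replicate number as a block and with the highest transcript on its own (adjusted p from 0.0769 to 0.180). Sqstm1 was lost without a trend (adjusted p = 0.0640). Mdm2 was lost under median-of-ratios scaling and quantile normalization (adjusted p = 0.0527 and 0.0577). Neither is a structural part of the bodies. Groups did not overlap for 9 genes in the higher direction and 1 in the lower, with 13.8% and 9.35% over all tested genes.

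None of 17 genes of SUMO conjugation and removal passed the limma threshold in either direction, and 0 had an unadjusted p below 0.05. Over all tested genes these shares were 1.73% higher and 0.336% lower, and 9.94% and 6.14% at an unadjusted p, so 0 adjusted calls in this list or in the H3.3 and SAND lists is near the background. The log2 differences of the SUMO genes ran from -0.32 to 0.47 with a median of 0.09. Of 12 genes of H3.3 deposition, the pathway in which Daxx acts with Atrx, 0 passed, and 1, H3f3a, had an unadjusted p below 0.05 (log2 difference -0.37, chosen after its value was seen). H3f3b, which also encodes H3.3, went the other way with overlapping groups (log2 difference 0.44). It had 565, 340 and 394 FPKM in siNC and 567, 527 and 635 FPKM in siCNN3. The median of the list was 0.01, and Atrx was at 30.1, 25.9 and 29.7 FPKM in siNC and 19.6, 27.0 and 25.5 FPKM in siCNN3, with overlapping groups. Of 6 relatives of the SP100 family with the SAND domain, a DNA-binding fold, 5 could be tested and 0 passed. Skil, the only one of them with an unadjusted p below 0.05 and also chosen after its value was seen, had a log2 difference of 1.22 (adjusted p = 0.0832).

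Among 14 interferon receptors, kinases and transcription factors, 2 passed the limma threshold higher and 0 lower (1.73% and 0.336% of all tested genes). At an unadjusted p below 0.05 there were 5 and 0 (9.94% and 6.14% over all tested genes). Groups did not overlap for 5 in the higher direction and 0 in the lower (13.8% and 9.35% over all tested genes). The median log2 difference was 0.14, with a range from -0.31 to 4.36. Irf7, a transcription factor of the type I interferon response, had 0.796, 11.8 and 5.33 FPKM across the siNC libraries, against 131, 122 and 76.6 FPKM across the siCNN3 libraries (log2 difference 4.36, SE 0.665, adjusted p = 0.0305). In Irf7 siNC replicate 2 was the highest siNC library and siCNN3 replicate 3 the lowest siCNN3 library, as for Daxx, Sp100 and the PHF11 genes. Trp53 and Hnrnpm, which did not pass, had the same highest and lowest libraries, so this order is not particular to these genes. Across all tested genes, deviations of siNC replicate 2 and siCNN3 replicate 3 from their group means correlated at -0.45. The Irf7 call was lost when replicate 3 of siNC, or replicate 1 or 2 of siCNN3, was left out (adjusted p from 0.115 to 0.126). It was also lost with a pseudocount of 0.1 (adjusted p = 0.0506) and with the replicate number as a block (adjusted p = 0.0565). The highest transcript on its own was not called either (adjusted p = 0.0580). Without siNC replicate 1 the log2 difference of Irf7 was 3.58.

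**Figure D3:**
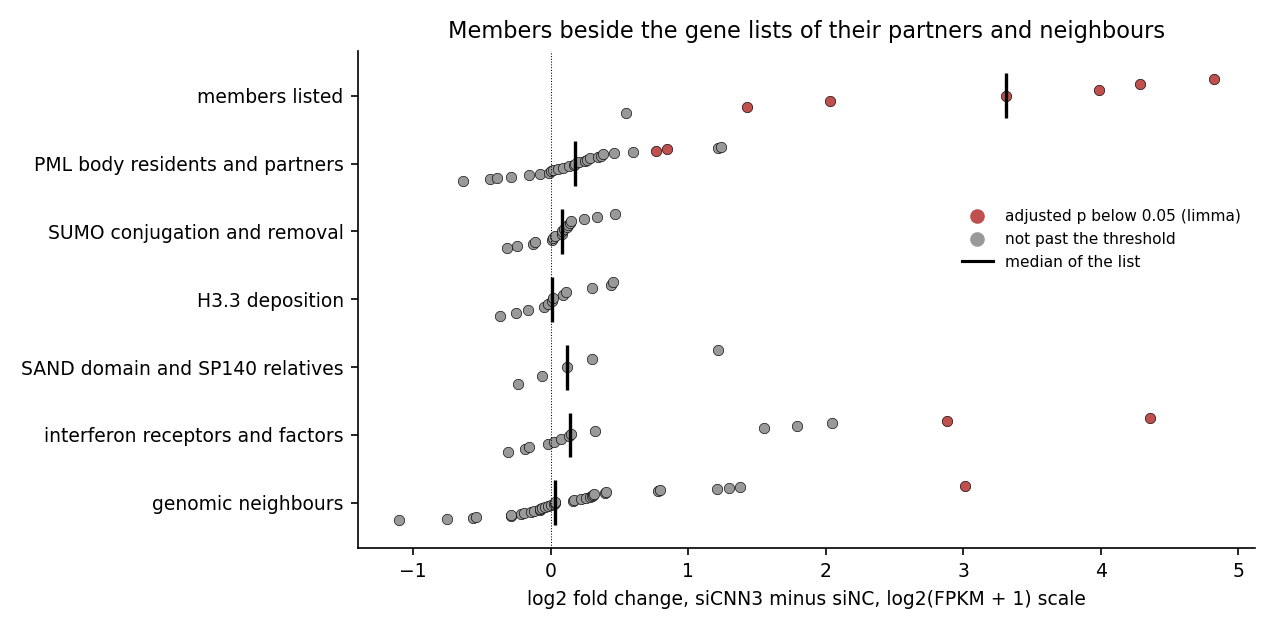
Log2 difference of siCNN3 and siNC on the log2(FPKM + 1) scale for the 7 listed genes and for each gene of 6 lists (partners of PML bodies, SUMO, H3.3 deposition, SAND domain, interferon receptors and factors, and genomic neighbours), with red points past an adjusted p of 0.05 by limma and a bar at the median. The median is 3.31 for the 7 listed genes, which were chosen on this contrast, and lies between 0.01 and 0.18 in these 6 lists.

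Genes around the 9 genes were compared to see whether the differences extended along the chromosome. Of 54 protein-coding genes within 250 kb, 35 could be tested. By limma, only H2-K1 passed in the higher direction and 0 in the lower (1.73% and 0.336% over all tested genes). At an unadjusted p below 0.05 there were 4 and 2 (9.94% and 6.14% over all tested genes). The median log2 difference was 0.03, the same as over all tested genes. H2-K1, a class I heavy chain of the major histocompatibility complex on the side of Daxx, had 30.5, 51.3 and 43.0 FPKM across the siNC libraries, against 375, 371 and 270 FPKM across the siCNN3 libraries (log2 difference 3.01, SE 0.220, adjusted p = 0.00473). Its call held without any 1 library (adjusted p at most 0.0421).

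The gene nearest to Daxx was Tapbp, 0.309 kb away, which encodes the peptide-loading protein tapasin. It measured 67.4, 119 and 76.4 FPKM in the siNC libraries and 244, 236 and 162 FPKM in those of siCNN3, without overlap, but did not pass (log2 difference 1.30, adjusted p = 0.0572). Next to it, Zbtb22 overlapped between groups (log2 difference -0.21), and Platr17 was below the filter. Setdb2, a SET-domain methyltransferase gene 6.63 kb from Phf11c, had 2.11, 4.04 and 3.01 FPKM across the siNC libraries, against 13.0, 11.6 and 5.26 FPKM across the siCNN3 libraries (log2 difference 1.38, adjusted p = 0.106). On the side of Phf11a, Rcbtb1 overlapped between groups (log2 difference -1.10), and Gm6904 was below the filter. Stoml1, 3.38 kb from Pml, measured 2.82, 4.58 and 5.55 FPKM in the siNC libraries and 12.8, 6.77 and 15.2 FPKM in those of siCNN3 (log2 difference 1.21, adjusted p = 0.128). Islr, 13.8 kb from Pml, overlapped (log2 difference 0.32), and Islr2 was not in the table. Beside the SP100 genes, Cab39 overlapped (log2 difference 0.17), A630001G21Rik was below the filter and G530012D18Rik was not in the table. Over all 35 tested neighbours, groups did not overlap for 5 in the higher direction and 2 in the lower, with 13.8% and 9.35% over all tested genes. The 2 in the lower direction, chosen after their values were seen, were Rgl2 near Daxx (log2 difference -0.57) and Loxl1 near Pml (log2 difference -0.54), and neither passed the threshold.

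**Figure D4:**
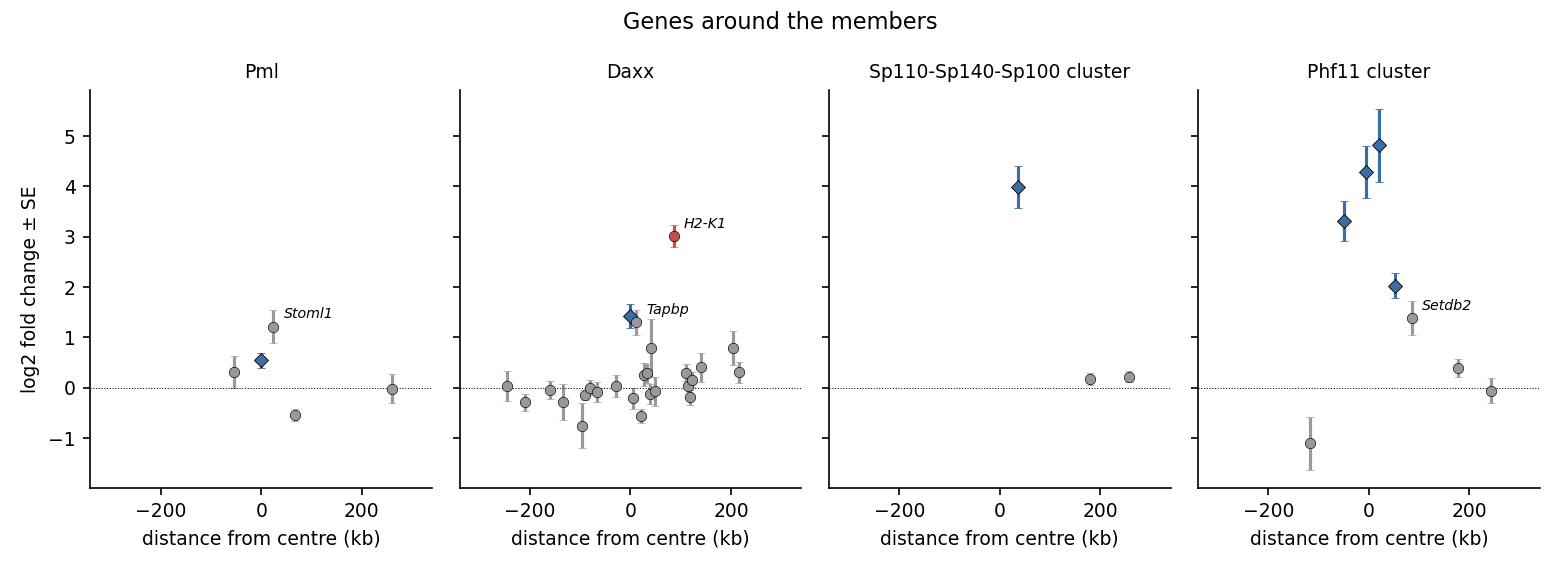
Log2 difference (± SE) of the listed genes (blue diamonds) and of the tested protein-coding genes around them (circles, red where past an adjusted p of 0.05 by limma), against the distance of the middle of each gene from the centre of the gene or gene group in kb. H2-K1 (3.01) is the only red circle, and Tapbp, Setdb2 and Stoml1 lie between 1.21 and 1.38.

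The genes most like Pml and most like Sp100 were found by the root mean square difference of the log2(FPKM + 1) profiles over the 6 libraries, each taken relative to its own siNC mean. Nearest to Pml were Rpl22l1 (0.0375), Sap30 (0.0665) and Mvb12a (0.0706). Rpl22l1, a ribosomal protein paralog, had 100, 110 and 123 FPKM across the siNC libraries, against 152, 139 and 183 FPKM across the siCNN3 libraries, so that siCNN3 replicate 3 was the highest library, as for Pml. Nearest to Sp100 were Oas1g (0.276), Oas3 (0.280) and Ifi208 (0.355). Oas3, an oligoadenylate synthetase, measured 0.0258, 0.297 and 0.0819 FPKM in the siNC libraries and 26.3, 23.3 and 10.6 FPKM in those of siCNN3, in the same order of libraries as Sp100. These distances are not scaled by the size of the difference, so those of Pml and Sp100 cannot be compared.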

How the data were processed

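RNA of 3 siNC and 3 siCNN3 samples was sequenced, and the authors deposited FPKM for 24023 Ensembl transcripts. The submitters' processing notes name Bowtie 0.12.2 and the builds mm8 and mm10, without their roles. The annotation, the read numbers and the program that estimated FPKM are not given in the sources used here, so the depth is unknown. Identifiers were matched without version to GENCODE M21 (GRCm38) for 23949 transcripts, and the 74 others (0.159% to 0.220% of summed FPKM) were left out. FPKM were summed by symbol, 9 symbols combining several gene identifiers.

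Genes averaging 0.5 FPKM or more over the 6 libraries were fitted as log2(FPKM + 1) with limma 3.58.1 in R 4.3.3 (tables read with data.table, 1.17.8), using a trend of variance on mean and the Benjamini-Hochberg adjustment over 11593 genes and a threshold of 0.05. The exact permutation test of 3 against 3 libraries cannot give a p below 0.1. The fit was tested on simulated data. Other steps used Python 3.11.15, pandas 2.3.3, numpy 2.4.6 and matplotlib 3.10.9.

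The 9 genes and all lists were chosen with earlier results of these data known. Named were these genes, Cnn3, up to 3 called genes with the largest change of a list, the 3 nearest neighbours of each locus, and the 3 genes most like Pml and Sp100. Outside this rule, H3f3a, H3f3b, Skil, Myf5, Rgl2, Loxl1, Trp53 and Hnrnpm were named after their values were seen. Atrx was named as the partner of Daxx, and Cd68, Lyz2 and other markers to say what was listed. A called gene of the interferon list is not reported here. Stretches of 50 bases from the listed transcripts of these genes were compared with all GENCODE transcripts of other genes. Deviations of same-numbered replicates from their group means correlated at -0.28, 0.31 and -0.02 across genes, so the numbers were not taken as pairs. Alternatives were another pseudocount, other filters, quantile normalization, median-of-ratios scaling, a replicate block, no trend, the highest transcript of a gene on its own, and each library left out.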

Additional observations from a re-analysis of the deposited data

How the results depend on the processing

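Every listed gene of the PML body, SP100 and PHF11 group kept a positive log2 difference under all alternatives that gave it a value, 14 for each gene and 13 for Phf11c, which the filter at 5 FPKM removed. These genes were chosen on this contrast, so their signs and counts of calls are no sign of stability. A pseudocount of 0.1 moved Phf11a to 4.98 and Phf11c to 3.23, and the highest transcript on its own moved Pml to 0.99 and Daxx to 1.02. The main counts were 200 genes higher and 39 lower, 6 listed genes higher, 2 partners of PML bodies higher, 2 interferon genes higher, 1 neighbour higher and 2 muscle markers lower. A pseudocount of 0.1 left 1 interferon gene (Irf7 had an adjusted p of 0.0506), and a filter at 5 FPKM left 1 muscle marker, since Myh3 was then not tested. Median-of-ratios scaling gave 63 genes lower and 2 neighbours higher, and quantile normalization gave 93 genes lower, and Mdm2 was not called under either (adjusted p = 0.0527 and 0.0577). With the replicate number as a block, 62 genes were higher and 6 lower, with 3 listed genes (Sp100, Phf11a and Phf11b), 0 partners, 0 interferon genes and 0 muscle markers. That block changed no other list count. Without a trend 1 partner was left. With the highest transcript of a gene on its own, 68 genes were higher and 10 lower, with 3 listed genes, 0 partners, 0 interferon genes and 0 muscle markers lower. With each library left out in turn, 16 to 443 genes were higher and 4 to 159 lower, with 0 to 6 listed genes, 0 to 2 partners, 0 to 4 interferon genes, 1 to 3 neighbours higher and 0 to 1 lower, and 0 to 3 muscle markers lower and 0 to 1 higher. The cause of these shifts was not tested. No log2 difference of a listed gene, of Cnn3 or of a list gene past the threshold in the main fit reversed. Other named genes were not followed through the alternatives. Depth is unknown, so a limit from it cannot be set, and low siNC levels of the PHF11 genes and Sp100 leave their folds imprecise.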
